A study of Mus musculus with 12 samples.

Results

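Chromatin accessibility was examined at the loci of 9 transcription factors of the developing heart, Hand1, Hand2, Gata6, Tbx2, Tbx3, Tbx5, Tbx20, Nkx2-5 and Isl1. A peak was counted to a gene when it overlapped the gene body or the 25 kb on either side of it in GENCODE M21 (GRCm38, mm10), and 73 of the 176680 peaks of the deposited table did so, between 4 at Isl1 and 11 at Tbx2. The libraries came from mouse embryonic fibroblasts (MEFs) of wild-type C57BL/6N embryos at E13.5, and were made by ATAC-seq, in which the Tn5 transposase inserts adapters into open chromatin. The study asked what Prox1, a homeodomain factor of liver, lymphatic endothelium and other tissues, does during reprogramming of fibroblasts towards hepatocyte-like cells by the 4in1 vector. In all, 12 libraries fell into 4 groups of 3, named MEF, Prox1_OE, 4in1_GFP_OE and 4in1_Prox1_OE. The values described here concern the last pair. Both of these groups carried lentiviral rtTA and 4in1, received doxycycline at 2 µg/mL and were collected on day 2. They differed in the added vector, tetO-GFP in the controls and tetO-FLAG-mmProx1 in the others. The libraries are pools of many transduced cells, so a lower level at a peak cannot be told apart from fewer cells in which it was open.

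These 9 factors form part of the regulatory network that builds the heart. HAND proteins are basic helix-loop-helix factors of the ventricles and outflow tract, GATA factors are zinc-finger activators, T-box factors pattern chambers, valves and the conduction system, and Nkx2-5 and Isl1 are homeodomain factors of the early cardiac field and of the cardiac progenitors of the second heart field. Several of them also act outside the heart, for example Tbx5, Tbx3 and Hand2 in the limb bud and Gata6 in endoderm, so open chromatin at these genes is not by itself a sign of heart cells.

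Each peak has 1 authors' mean per group, the log2 of the mean normalised read number over the 3 libraries of that group. No value per library was used, so a difference between the groups has no replicate error and no test, and the read depth behind it is unknown. Differences are given as 4in1_Prox1_OE minus 4in1_GFP_OE on the log2 scale, so a negative value means less accessible with Prox1, and read numbers are the same means on the linear scale. A peak is counted as lower or higher when it differed by at least 2-fold.

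The sequences of 6 distal peaks are shown first. They are among the peaks with the largest differences, apart from those that overlap an exon and one at Gata6. Which gene, if any, they regulate was not tested. Each is 201 bases of the plus strand of GRCm38 (mm10), and no base of it lies in an annotated exon. Capitals mark matches to the letters of 10 consensus motifs on either strand in the first 5 sequences, and a repeated run in the sixth. The motifs were AGATAA for GATA factors, AGGTGTGA for T-box factors, CATCTG for the E-box of HAND and TWIST proteins, CACTTAA and CACTTGA for NKX2-5, TGANTCA for AP-1, GGAATG for TEAD, and those of MEF2, CTCF and PROX1 by name, with 1 mismatch allowed for CTCF and PROX1. The first 4 peaks were lower with Prox1 and the last pair were higher.
Tbx5 intron, chr5:119868059-119868259: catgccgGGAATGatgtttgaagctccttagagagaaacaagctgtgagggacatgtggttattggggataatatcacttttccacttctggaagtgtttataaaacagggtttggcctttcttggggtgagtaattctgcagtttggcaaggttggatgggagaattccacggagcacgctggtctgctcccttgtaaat
Tbx2 upstream, chr11:85812293-85812493: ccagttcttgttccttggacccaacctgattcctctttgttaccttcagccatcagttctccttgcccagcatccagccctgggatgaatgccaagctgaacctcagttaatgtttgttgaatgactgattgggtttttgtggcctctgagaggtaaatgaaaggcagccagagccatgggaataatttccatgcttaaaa
Tbx5 downstream, chr5:119887463-119887663: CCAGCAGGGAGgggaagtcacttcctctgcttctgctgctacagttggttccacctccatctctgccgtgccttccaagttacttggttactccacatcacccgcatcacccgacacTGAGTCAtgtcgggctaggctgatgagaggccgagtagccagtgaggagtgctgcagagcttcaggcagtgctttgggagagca
Tbx3 upstream, chr5:119647026-119647226: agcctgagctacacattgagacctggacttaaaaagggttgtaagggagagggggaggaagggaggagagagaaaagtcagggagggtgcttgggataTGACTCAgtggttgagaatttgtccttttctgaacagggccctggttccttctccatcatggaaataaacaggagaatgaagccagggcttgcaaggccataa
Tbx2 downstream, chr11:85864487-85864687: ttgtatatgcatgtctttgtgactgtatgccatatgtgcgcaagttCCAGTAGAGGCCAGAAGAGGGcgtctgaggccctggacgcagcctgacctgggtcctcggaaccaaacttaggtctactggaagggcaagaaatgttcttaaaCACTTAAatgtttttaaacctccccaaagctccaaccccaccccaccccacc
Nkx2-5 downstream, chr17:26837105-26837305: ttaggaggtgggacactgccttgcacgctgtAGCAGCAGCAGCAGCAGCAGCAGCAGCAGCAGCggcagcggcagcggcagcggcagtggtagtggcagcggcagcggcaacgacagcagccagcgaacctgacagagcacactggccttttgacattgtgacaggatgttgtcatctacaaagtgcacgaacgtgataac

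In these letters the Tbx5 intron peak holds a TEAD match and the Tbx2 upstream peak holds none of the motifs. The Tbx5 downstream peak holds a CTCF and an AP-1 match, and the Tbx3 upstream peak an AP-1 match. The Tbx2 downstream peak holds a pair of CTCF matches that share 1 base, and an NKX2-5 match. The Nkx2-5 downstream peak holds no match but a run of 33 bases with a period of 3, and runs at least as long were present in 111 of all 176680 peaks, or 0.0628%. That run was noticed after the values were seen.

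At the 9 loci as a whole, most peaks were somewhat less accessible with Prox1 and few differed by 2-fold. The median difference over the 73 peaks was -0.21, against -0.42 over all peaks. Of the 73 peaks, 6 (8.22%) were at least 2-fold lower with Prox1, where 24.4% of all peaks were. At least 2-fold higher were 2 of the 73 (2.74%), where 8.33% of all peaks were. Below 0 were 48 of the 73 (65.8%), against 72.3% of all peaks. The peaks ran from -1.47, in an intron of Tbx5, to 1.31, at a start site of Nkx2-5.

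**Figure D1:**
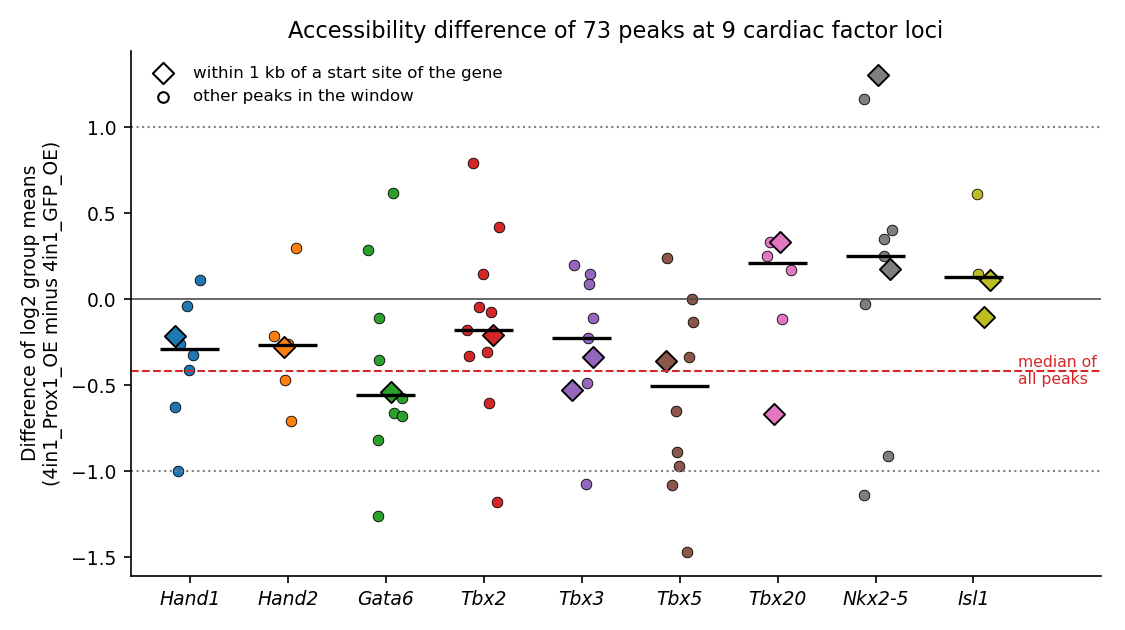
Difference of log2 group means (4in1_Prox1_OE minus 4in1_GFP_OE) of each of the 73 peaks, by gene. Diamonds are peaks within 1 kb of a start site of the gene, black bars are the median of each gene, dotted lines mark 2-fold and the dashed line is the median of all peaks at -0.42. The medians of Tbx20, Nkx2-5 and Isl1 lie above 0 and those of the other 6 genes below it.

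Because most peaks of the table were lower with Prox1, where 0 is placed sets the direction of small differences. The sum of the group means over all peaks was 31016876 reads in 4in1_GFP_OE and 23306866 in 4in1_Prox1_OE. When the median of the whole table was set to 0, the 73 peaks had a median of 0.20. On that scale 1 of them, the Tbx5 intron peak, was at least 2-fold lower, and 5 were at least 2-fold higher, where 8.64% and 13.4% of all peaks were. The order of the loci does not depend on where 0 is placed. By their median difference they ran from Gata6 (-0.56) and Tbx5 (-0.50) through Hand1 (-0.29), Hand2 (-0.27), Tbx3 (-0.23) and Tbx2 (-0.18) to Isl1 (0.13), Tbx20 (0.21) and Nkx2-5 (0.25). Without replicate values, which neighbours in this order differ beyond their error cannot be said.

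The same median was taken for each of the 16940 protein-coding genes with at least 4 peaks in such a window. The median of these locus medians was -0.28, 88.4% of them were below 0, and the 10th and 90th percentiles were -0.74 and 0.03. Gata6 and Tbx5 stood at percentiles 20.6 and 25.0 of that distribution. Hand1, Hand2, Tbx3 and Tbx2 stood in its middle, at percentiles 48.7, 52.5, 59.5 and 67.9. Isl1, Tbx20 and Nkx2-5 stood near its upper end, at percentiles 93.9, 95.7 and 96.5.

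**Figure D2:**
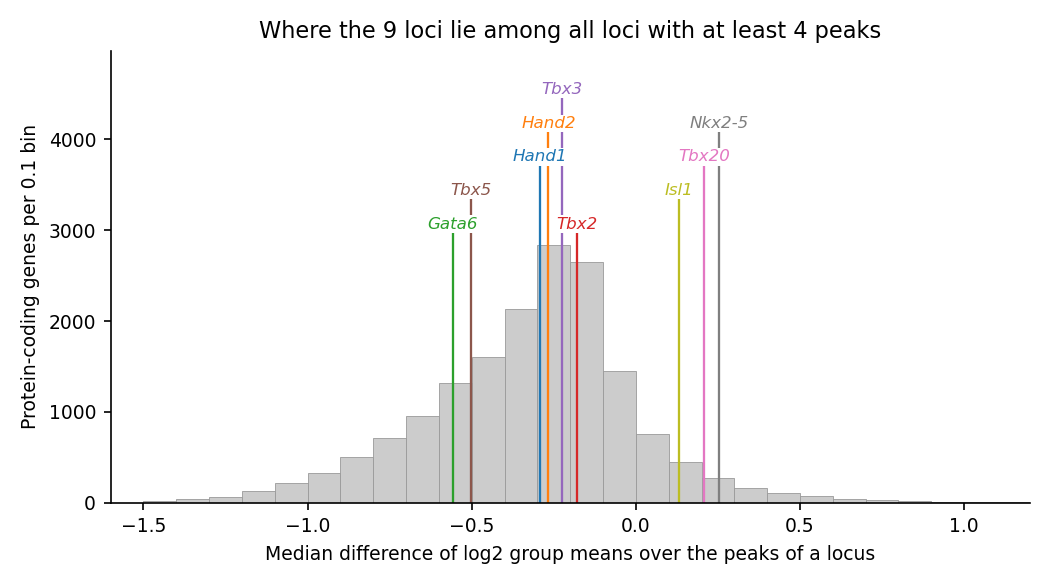
Histogram of the median difference of log2 group means over the peaks of a locus, for the 16940 protein-coding genes with at least 4 peaks (grey, genes per 0.1 bin), with the 9 genes as coloured lines. Isl1, Tbx20 and Nkx2-5 lie in the right tail, at 0.13, 0.21 and 0.25, and Gata6 lies furthest left of the 9, at -0.56.

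Peaks near the start sites of the 9 genes had reads in both groups, but the columns used do not say in which group a peak was called. All 9 genes had at least 1 peak within 1 kb of one of their start sites, 13 such peaks in all, with a median difference of -0.21. None of the 13 was at least 2-fold lower, and 1, at Nkx2-5, was at least 2-fold higher. Of the 26495 promoter peaks of all genes, 9.92% were at least 2-fold lower and 3.73% higher, with a median of -0.22. The start-site peak with the highest mean over both groups was taken as the strongest of its gene, and its level in 4in1_GFP_OE ranged from 59.3 reads at Nkx2-5 to 795 reads at Tbx3.

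Hand1, a factor of the left ventricle and of extra-embryonic tissue, lies on the minus strand at chr11:57828705-57832818 and had 8 peaks. Its start-site peak, 0.985 kb upstream, averaged 105 reads in 4in1_GFP_OE and 90.8 in 4in1_Prox1_OE (-0.21). The strongest peak of the window was intergenic, 12.6 kb past the 5′ end of the gene and so downstream of it, with 263 and 220 reads (-0.26). The peak with the largest difference lay 22.9 kb upstream, had 67.9 reads with GFP and 34.0 with Prox1, and stayed just short of 2-fold at -0.999. A single peak of the window, 5.75 kb from the 5′ end, was higher with Prox1, by 0.11 on the log2 scale. The window thus held 7 peaks below 0 and none past 2-fold.

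Hand2, a factor of the right ventricle, the neural crest and the posterior limb bud, lies on the plus strand at chr8:57320983-57324633 and had 6 peaks. The peak over its 5′ UTR averaged 407 and 336 reads (-0.27). An intergenic peak 7.72 kb from the start was the strongest, with 429 and 358 reads (-0.26). The largest difference was at 20.04 kb from the start, in an exon of a noncoding gene, with 186 and 114 reads (-0.70). The peak 8.20 kb upstream was the only one higher with Prox1, at 144 and 177 reads (0.30). Of the 6 peaks, 4 lie within 1 kb of a start site of another gene, and for 2 of these, the 5′ UTR peak included, that gene is Hand2os1, the long noncoding RNA that is transcribed away from Hand2.

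Gata6, which acts in cardiac mesoderm and in endoderm including the liver bud, lies on the plus strand at chr18:11052064-11085635 and had 10 peaks. It had the lowest locus median of the 9 genes, and its summed group means were 1524 reads with GFP and 1038 with Prox1, a ratio of 0.681. The start-site peak, over the 5′ UTR, averaged 471 and 324 reads (-0.54). The largest difference lay 5.48 kb upstream, in an intron of the noncoding gene 1010001N08Rik, with 240 and 100 reads (-1.26). A pair of intronic peaks went the other way, a weak one at 22.3 kb with 28.9 and 44.3 reads (0.62) and one at 26.2 kb with 55.7 and 67.9 reads (0.29). The weak one lay 363 bases from a peak with 76.2 and 43.3 reads (-0.82), so differences of opposite sign stood side by side.

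The 4 T-box genes had 36 peaks with a median difference of -0.19, of which 4 (11.1%) were at least 2-fold lower and none was higher, against 24.4% and 8.33% of all peaks. Tbx2 and Tbx3 encode repressors that keep the atrioventricular canal and the conduction system from becoming working myocardium, whereas Tbx5 encodes an activator of atrial, left ventricular and forelimb genes. Tbx20 encodes a factor of the myocardium and of the endocardial cushions.

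Tbx2 lies on the plus strand at chr11:85832551-85841948 and had 11 peaks, the most of the 9 windows. Its start-site peak, over the 5′ UTR and the first coding exon, averaged 310 and 269 reads (-0.21). Just past the 3′ end stood a row of strong peaks, at 9.64, 10.9 and 12.3 kb from the start. The first had 419 and 399 reads (-0.07), the second 427 and 414 reads (-0.04) and the third 476 and 379 reads (-0.33). These 3 peaks stood within 0.33 of equal levels, whereas the next one, at 16.7 kb and the strongest of the window with GFP, had 510 and 337 reads (-0.60). The peaks with the lowest and the highest difference lay near the edges of the window. The upstream peak printed above, in an intron of Bcas3, 20.2 kb from the start, had 129 reads with GFP and 56.9 with Prox1 (-1.18). The downstream peak printed above, at 32.0 kb, had 57.1 and 99.0 reads (0.79).

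Tbx3, on the plus strand at chr5:119670669-119684724, had 9 peaks and the strongest start-site peak of the 9 genes, with 795 reads in 4in1_GFP_OE and 552 in 4in1_Prox1_OE (-0.53). The upstream peak printed above, 23.5 kb from the start and in introns of the noncoding genes Tbx3os1 and Gm16064, had 258 and 123 reads (-1.07). It also lies within 1 kb of a start site of Gm16064. The next 3 peaks towards the gene were weak, with 44.4 to 53.8 reads in 4in1_GFP_OE, and were slightly higher with Prox1, by 0.09 to 0.20. A peak in the coding sequence, within 1 kb of an internal start site, had 132 and 104 reads (-0.34).

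Tbx5, on the plus strand at chr5:119832668-119885219, had 10 peaks, and 4 of the 10 peaks with the lowest differences at the 9 loci were in its window. The intron peak printed above had the lowest value of all 73, with 152 reads in 4in1_GFP_OE and 55.0 in 4in1_Prox1_OE (-1.47). It stood at percentile 7.17 of all peaks. The peak 1.09 kb before it in the same gene was higher with Prox1, at 168 and 199 reads (0.24). The downstream peak printed above had 127 and 60.2 reads (-1.08), and a peak over a coding exon at 12.5 kb had 264 and 135 reads, just short of 2-fold (-0.97). The start-site peak, over the 5′ UTR, averaged 207 and 162 reads (-0.36). The window also holds the promoter peak of the neighbouring Gm43050, 1.12 kb upstream of Tbx5, with 210 and 192 reads (-0.13).

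Tbx20, on the minus strand at chr9:24718138-24774303, had 6 peaks, and its strongest peak differed in sign from the median over them. The start-site peak, over the 5′ UTR, averaged 457 reads in 4in1_GFP_OE and 288 in 4in1_Prox1_OE (-0.67), the lowest difference of the 13 start-site peaks. Of the other 5 peaks, 4 were higher with Prox1, by 0.17 to 0.34. These were the peaks at 3.72 kb, over a coding exon, with 117 and 147 reads, at 13.6 kb, in an intron, with 106 and 133 reads, 6.91 kb upstream with 172 and 205 reads, and past the 3′ end, over a UTR of Dpy19l2, with 172 and 193 reads. The median over peaks was therefore 0.21, while the sum of the group means was 1147 reads with GFP and 1080 with Prox1.

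**Figure D3:**
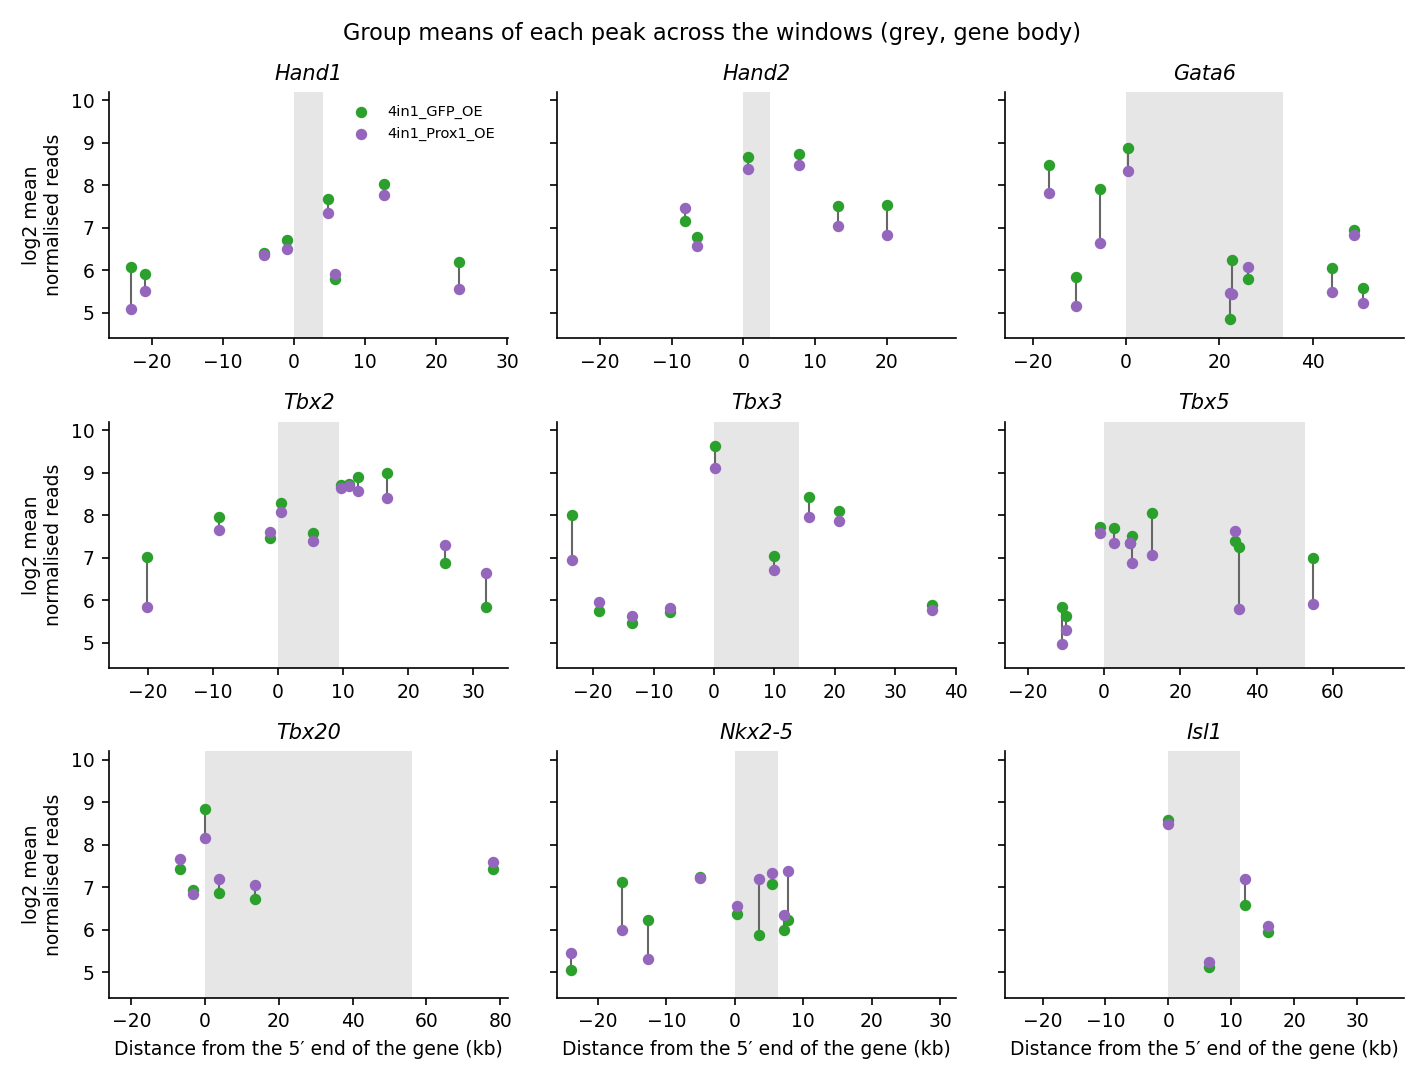
Log2 mean normalised reads of each peak in 4in1_GFP_OE (green) and 4in1_Prox1_OE (purple) against its distance from the 5′ end of the gene in kb, in the direction of transcription, with the gene body in grey. The start-site peaks of Tbx3, Tbx20, Gata6, Isl1 and Hand2 are high in both groups, and the purple point stands above the green one by over 2-fold at 2 peaks, both in the Nkx2-5 window.

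Nkx2-5 was the locus with the most accessibility in favour of Prox1, and with the widest spread. It encodes the homeodomain factor that marks committed cardiac progenitors, lies on the minus strand at chr17:26838664-26845009 and had 9 peaks, of which 6 were above 0. The peak over its 5′ UTR, centred 38 bases past the start site used by RefSeq, averaged 59.3 reads in 4in1_GFP_OE and 147 in 4in1_Prox1_OE (1.31). That is percentile 94.3 of all peaks and 97.6 of the promoter peaks of all genes. A second start-site peak, 0.305 kb past the annotated 5′ end of the gene, had 83.1 and 94.1 reads (0.18). The repeat-bearing peak printed above, 1.46 kb past the 3′ end of the gene, had 75 and 168 reads (1.17). Between these, a peak over a coding exon had 135 and 161 reads (0.25).

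Of the 4 peaks upstream of Nkx2-5, 2 had the lowest differences of its window. At 16.5 kb upstream, over exons of the noncoding genes Gm20468 and Gm17382 and within 1 kb of a start site of Gm20468, a peak had 140 reads with GFP and 63.7 with Prox1 (-1.14). At 12.6 kb upstream, an intergenic peak had 75.5 and 40.1 reads (-0.91). The peak 5.03 kb upstream had 152 and 149 reads (-0.02), and the furthest, at 23.98 kb, was weak and higher with Prox1, with 33.1 and 43.7 reads (0.40). The summed group means of the window were 817 reads with GFP and 948 with Prox1, a ratio of 1.16. Without Nkx2-5 none of the remaining 64 peaks was at least 2-fold higher.

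Part of the Nkx2-5 promoter is also shown, because the peak over its 5′ UTR had the largest positive difference of all 73 peaks. RefSeq promoter sequences on GRCm38 were at hand for Hand2, Tbx20, Nkx2-5 and Isl1. The part of the Nkx2-5 promoter before the first annotated UTR base, chr17:26841609-26841815, reads on the minus strand, which is the strand of the gene, as follows.
Nkx2-5 promoter: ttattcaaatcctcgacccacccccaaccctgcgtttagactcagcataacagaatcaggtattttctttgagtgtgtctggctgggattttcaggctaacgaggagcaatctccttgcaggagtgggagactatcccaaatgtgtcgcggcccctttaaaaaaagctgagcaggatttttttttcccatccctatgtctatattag

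These 207 bases had a GC content of 45.4% and 5 CpG dinucleotides, and held none of the 10 motifs. Most of them lie outside the peak, chr17:26841427-26841627, so they do not describe it. The bases of the peak itself had a GC content of 68.7% and also held none of the 10 motifs. In 32851 RefSeq promoters, read over the same stretch, AGATAA was present in 8.67%, CATCTG in 12.3%, GGAATG in 10.97%, CTCF in 7.34% and TGANTCA in 5.76%. The other motifs were each present in under 3% of them.

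Isl1, the LIM-homeodomain factor of second heart field progenitors and of motor neurons, lies on the minus strand at chr13:116298281-116309689 and had 4 peaks, the fewest of the 9. Its start-site peak, over the 5′ UTR, was strong and nearly equal in the groups, with 386 reads in 4in1_GFP_OE and 360 in 4in1_Prox1_OE (-0.10). The other 3 peaks were all higher with Prox1. The largest difference was at an intergenic peak 0.786 kb past the 3′ end of the gene, with 96.5 and 147 reads (0.61), and the other 2 differed by 0.11 and 0.15.

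**Figure D4:**
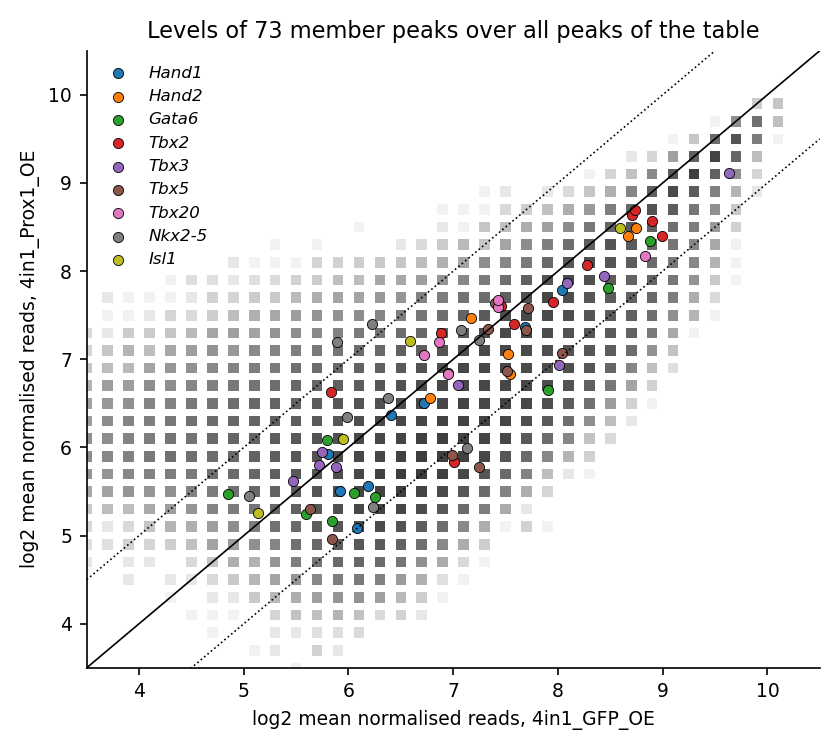
Log2 mean normalised reads of the 73 peaks in 4in1_GFP_OE (x axis) and 4in1_Prox1_OE (y axis), coloured by gene, over the density of all 176680 peaks in grey, of which those outside the axes are not drawn. The solid line marks equal levels and the dotted lines 2-fold. The strong peaks at Tbx2, Tbx3, Gata6 and Hand2 lie between the solid and the lower dotted line, while the points beyond the dotted lines all lie at or below 8.01 on the x axis.

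The 6 peaks at least 2-fold lower had between 127 and 258 reads in 4in1_GFP_OE and were spread over 5 genes, with 2 at Tbx5 and 1 each at Gata6, Tbx2, Nkx2-5 and Tbx3. None of them was within 1 kb of a start site of the gene to which it was counted. The 2 peaks at least 2-fold higher were both at Nkx2-5. Just inside the 2-fold line stood the Tbx3 upstream peak at -1.07, and just outside it the Hand1 upstream peak at -0.999 and the Tbx5 coding-exon peak at -0.97. On the other side, the Nkx2-5 downstream peak stood just inside at 1.17, and the Tbx2 downstream peak just outside at 0.79. Over all peaks such differences also moved with the level. With all peaks split into 10 equal classes by mean level, 29.2% of class 1, the lowest, and 0.0453% of class 10 were at least 2-fold higher. At least 2-fold lower were 11.6% of class 1, 32.05% of class 7 and 9.86% of class 10.

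Over all peaks, base composition moved with the difference between the groups. The median GC content was 57.2% over the 73 peaks and 48.8% over all peaks, and with all peaks split into 4 equal classes by GC content, 46 of the 73 stood in the highest class. Over all peaks, 37.1% of the lowest class were at least 2-fold lower with Prox1, then 31.6%, 21.5% and 7.33% of the following classes. Among the 73 peaks the order was not the same, with 0 of 2, 3 of 8, 2 of 17 and 1 of 46 at least 2-fold lower. Their medians by class were -0.70, -0.78, -0.33 and -0.10, against -0.73, -0.63, -0.42 and -0.18 for all peaks. Promoter peaks were also more frequent among the 73, at 30.1% against 15.0% of all peaks, counting promoters of any gene. The part of GC content and of promoters in the difference between the 73 peaks and all peaks was not tested.

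**Figure D5:**
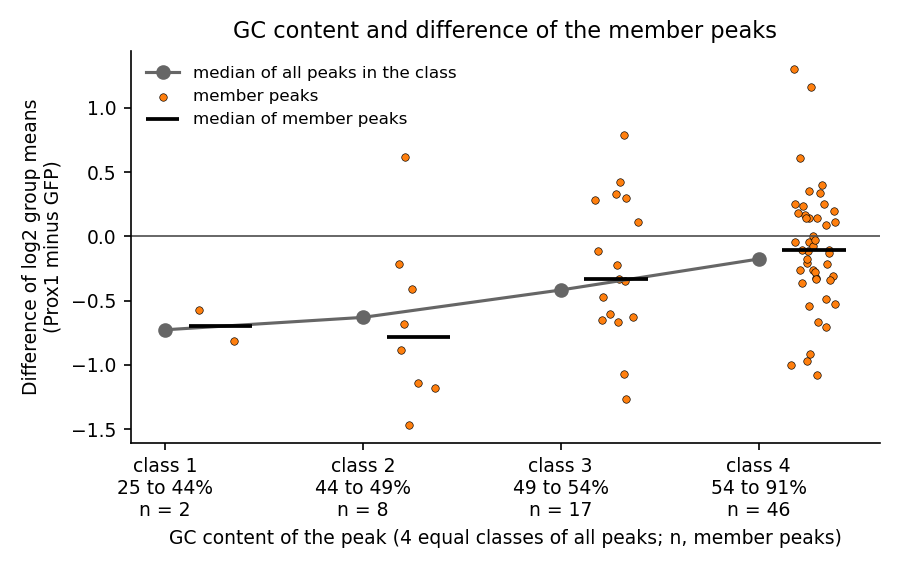
Difference of log2 group means of the 73 peaks (orange) in 4 equal classes of all peaks by GC content, with their medians as black bars and the median of all peaks in each class as grey points joined by a line. The median of all peaks goes from -0.73 in the lowest to -0.18 in the highest class, and 46 of the 73 peaks stand in the highest.

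The AP-1 motif TGANTCA, bound by FOS and JUN proteins that are active in fibroblasts, was present in 13 of the 73 peaks (17.8%), against 28.8% of all peaks. The 13 had a median difference of -0.68 and the other 60 one of -0.12. Over all peaks the medians were -0.82 with the motif and -0.29 without it. Of the 6 lower peaks, 2 held it, the Tbx5 downstream and the Tbx3 upstream peak. The TEAD motif was present in 6 of the 73 (8.22%) and in 20.1% of all peaks, and CTCF in 16 (21.9%) and in 15.2%.

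Of the motifs of the 9 factors themselves, CATCTG was present in 8 of the 73 peaks (10.96%, against 17.8% of all peaks), AGATAA in 4 (5.48%, against 6.72%) and AGGTGTGA in 1 (1.37%, against 0.796%). CACTTAA was in 1 (against 2.03% of all peaks) and CACTTGA in 2 (against 2.54%). MEF2 was in 1 (against 2.46%), and PROX1 in none, against 0.305% of all peaks. No match says only that these letters are not in the 201 bases of a peak.

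Other regulators of the heart were taken as a list of 30 genes, among them Gata4, Mef2c, Srf, Myocd and Tcf21. Their windows held 366 peaks beyond those of the 9 genes, with a median difference of -0.24. Of these, 65 (17.8%) were at least 2-fold lower and 34 (9.29%) at least 2-fold higher, against 24.4% and 8.33% of all peaks. With 0 at the median of the whole table, 26 were lower and 54 higher, where 8.64% and 13.4% of all peaks were, so the balance turned for the list and for all peaks alike. At the start sites, 27 of the 30 genes had a peak, and for Hand2os1 it was the Hand2 5′ UTR peak described above. When only the strongest start-site peak of each gene was taken, 1 was at least 2-fold lower and none higher. The shares of 9.92% and 3.73% given above count every promoter peak of all genes and so are not a like measure. The lower one was at Mef2c, which encodes a MADS-box activator of cardiac and skeletal muscle genes, with a difference of -1.18. With 0 at the median of the whole table, Mef2c was no longer past 2-fold, at -0.76, and Tbx1 was higher past it, at 1.19.

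The labelled cell type was checked at start sites, again with the strongest promoter peak of each gene. All 9 fibroblast genes on a list of markers (such as Col1a1, Twist1 and Pdgfra) had a promoter peak, with 1 of 9 at least 2-fold lower, Prrx1 at -1.27, and a median of -0.46. With 0 at the median of the whole table, Prrx1 stood at -0.85, short of 2-fold. Counting every promoter peak of all genes, 9.92% were lower, 3.73% higher and the median was -0.22, which is again not a like measure. Of 8 genes of differentiated cardiomyocytes, 6 had a promoter peak, with none past 2-fold in either direction and a median of -0.05. An open promoter in such a table does not show that the gene was transcribed. The labels themselves were checked at Prox1, where 3 peaks over coding exons averaged 3.42, 13.8 and 16.1 reads in 4in1_GFP_OE and 1632, 2078 and 6847 reads in 4in1_Prox1_OE. Reads from the integrated Prox1 vector cannot be told apart there from those of the endogenous gene. The other peaks of the Prox1 window, none of them over a coding exon, differed by -1.16 to 0.11. The source of the reads was not tested.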

How the data were processed

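ATAC-seq was performed on 12 libraries in 4 groups of 3, and the deposited table analysed here concerns 4in1_GFP_OE and 4in1_Prox1_OE. Per the study's methods and the submitters' processing notes, the authors trimmed reads (Trimmomatic 0.38), aligned them to mm10 (Bowtie2 2.3.4.3), filtered them and corrected the bias of Tn5 insertion, and compared peaks with DiffBind 3.4.11. MACS2 2.1.2 is named as peak caller, but another source of the study names Genrich, so the caller is uncertain. For the comparison the methods follow the vignette of that DiffBind version and name no normalisation setting themselves. Whether peaks were called per library or on pooled reads is not given in the sources used here. The authors deposited, per peak, the log2 of the mean normalised read count over both groups and within each group. These 3 columns were used. The other 3 measured columns, and 2 peak lists, hold the fold change, p-value and false discovery rate of the authors' own comparison or peaks chosen by it, and were not used. Another scaling of one group against the other would move all differences alike.

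Peaks were joined to GENCODE M21 genes, and sequences were read from GRCm38. Promoter peaks had their centre within 1 kb of an annotated start site. Differences of log2 group means were computed and counted past 2-fold (Python 3.11.15, pandas 2.3.3, numpy 2.4.6). The counting was tested on simulated data. Means over 3 libraries allow no replicate error and no test, and the depth per library is unknown. All 9 members are named, with the count and median of their peaks, their strongest start-site peak and their lowest and highest differences. Sequences shown are distal peaks among the largest differences, and none on chromosome 18 or over a UTR is printed. The members, gene lists, motifs and counts were chosen with earlier results of these data known. Alternatives were the placement of 0, the threshold, the window, a filter on weak peaks, merging of neighbouring peaks and leaving out each gene.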

Additional observations from a re-analysis of the deposited data

How the results depend on the processing

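No paired analysis was possible because only 1 mean per group was used, with no value per library, so no library could be left out either. Placing 0 at the median of all peaks gave a median difference of 0.20 over the 73 peaks, with 1 lower and 5 higher past 2-fold. Equal totals gave 0.20, 1 and 5. The 10% of peaks with the highest mean gave 0.049, 1 and 3, and promoter peaks gave 0.0073, 2 and 3. The share of all peaks past 2-fold was taken for the first of these placements alone, at 8.64% lower and 13.4% higher. The cause is in the construction, since these move every difference by 0.42, 0.41, 0.26 and 0.22. In that order of placements, medians that turned positive were, at Hand1, 0.13 and 0.12 (first and second only), at Hand2, 0.15 and 0.15 (first and second only), at Tbx2, 0.24, 0.23, 0.083 and 0.042, and at Tbx3, 0.19, 0.19 and 0.037 (all but the last). Under all 4 placements 3 of the 8 peaks past 2-fold stayed past it, the Tbx5 intron peak and both higher Nkx2-5 peaks. A 1.5-fold threshold gave 18 lower and 5 higher peaks and 1 lower start-site peak (Tbx20), and a 4-fold threshold gave 0 and 0. The share of all peaks past 1.5-fold or 4-fold was not taken, so whether these counts are few or many cannot be said. Windows of 10 kb gave 3 lower of 52 peaks and a median of -0.15, and windows of 50 kb 13 lower and 5 higher of 117 peaks and -0.23, against 24.4% lower and 8.33% higher of all peaks. Leaving out each gene gave 4 to 6 lower, 0 to 2 higher (0 without Nkx2-5), medians of -0.24 to -0.18 and 0 lower start-site peaks throughout. Leaving out weak peaks, merging neighbours and a 2 kb promoter changed no count by over 1.5 times.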

Other observations

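Loci of other lineages were described in the same way. A list of 10 skeletal muscle regulators, among them Myod1, Myf5 and Pax3, had 96 peaks with a median difference of -0.22, of which 15 (15.6%) were at least 2-fold lower and 9 (9.38%) at least 2-fold higher, against 24.4% and 8.33% of all peaks. With 0 at the median of all peaks, these counts were 2 and 16, where 8.64% and 13.4% of all peaks were past 2-fold. A list of 12 hepatocyte regulators, among them Hnf4a, Foxa2 and Cebpa, had 125 peaks with a median of -0.14, of which 23 (18.4%) were at least 2-fold lower and 15 (12%) higher, and with 0 at the median of all peaks 6 and 25, beside the same 8.64% and 13.4%. At their start sites, 7 of the 10 and 9 of the 12 genes had a peak. Of the strongest start-site peak of each gene, those past 2-fold were Mef2c, a member of the muscle list, at -1.18, and Nr1h4, the bile acid receptor, at -1.07. With 0 at the median of all peaks neither was past 2-fold, at -0.76 and -0.66, and Myod1 was higher past it, at 1.295. Mef2c also stands on the list of cardiac regulators. The values are single group means here too, so no difference between lists was tested.

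Promoters of genes of other cell types also had peaks in the bulk cells. Of 3 endothelial markers, all 3 had a promoter peak, and 2 were at least 2-fold lower with Prox1, Pecam1 at -1.59 and Cdh5 at -1.45, taking the strongest promoter peak of each gene. Counting every promoter peak of all genes, which is not a like measure, 9.92% were at least 2-fold lower and 3.73% higher. Both epithelial markers had one, and Epcam was higher by 1.00. None of the 3 genes of differentiated hepatocytes had a promoter peak in this table.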
